A study of Homo sapiens with 72 samples.

Results

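The genes described here are 37 extracellular matrix genes other than collagens, chosen by symbol from the 23170 genes counted in the study: 9 for fibronectin and matricellular proteins, 9 for proteoglycans and small leucine-rich proteins, 13 for elastic fibres and microfibrils, and 6 for the basement membrane. All 37 were counted and all 37 passed the filter on low counts in the comparisons of doses with DMSO. Expression was measured by DRUG-seq, which barcodes polyadenylated RNA in the lysate of each well and reads its 3′ ends. The cells were wildtype normal human dermal fibroblasts, primary connective tissue cells of the skin, seeded at 1250 cells per well of a 384-well plate. Omaveloxolone, a small molecule that activates the transcription factor NRF2, was given for 24 hours at 0.0005, 0.002, 0.005, 0.014, 0.04, 0.12, 0.37, 1.11, 3.33 or 10 µM, with 4 wells at each dose. The reference was 32 wells that received the solvent DMSO. Treated wells stood in plate rows K and L, in columns 3 to 22, with 2 wells of each dose in the left side of the plate (columns 3 to 12) and 2 in the right side (columns 13 to 22). In each side the dose fell by 1 step with each column to the right, so the order of the doses and the order of the columns cannot be told apart within a side. The DMSO wells filled columns 2 and 23 over rows A to P. The labels call the wells biological replicates, but nothing in them places the wells in separate cultures or donors, so p-values measure the spread between wells, which may be technical.

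Fibroblasts secrete these proteins into the space around them. Fibronectin forms fibrils that cells pull on through integrins, and matricellular proteins such as SPARC, the thrombospondins and tenascin C adjust how cells hold to the matrix rather than bearing load. Small leucine-rich proteoglycans such as decorin and lumican coat collagen fibrils and set their spacing, while fibrillin microfibrils carry elastin and hold latent TGF-β through the latent TGF-β binding proteins. Laminins and nidogens build the basement membrane, the thin sheet on which epithelium and vessels rest.

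Total counts per well were 9311006 to 10386930 at 0.37 µM, 1432737 to 1709990 at 1.11 µM, 132318 to 208739 at 3.33 µM and 25637 to 39396 at 10 µM, against 4910842 to 8685535 in DMSO wells. Fewer cells and less RNA per cell cannot be told apart in these data. Levels are given as TMM-scaled CPM, that is, counts per 1000000 of the effective library size, which is the well's total times a TMM factor. That factor was 0.939 to 0.954 at 0.37 µM, 0.831 to 0.861 at 1.11 µM, 1.00 to 1.16 at 3.33 µM and 1.89 to 2.22 at 10 µM, against 0.938 to 1.04 in DMSO wells. CPM at 1.11 µM are thus above, and at 10 µM below, plain counts per 1000000 of the well's total. The NRF2 target NQO1, which reduces quinones, averaged 5573 CPM at 0.37 µM, 13.3 times its DMSO level, and HMOX1, which breaks down heme, was 36.2 times its DMSO level. At 1.11 µM NQO1 averaged 410 CPM, 0.979 times its DMSO level, while HMOX1 was 33.1 times its DMSO level. All 12 fibroblast markers examined were counted in every DMSO well, and their summed level was 69697 to 81691 CPM, of which VIM averaged 60343. KDR, TEK and TYRP1, markers of endothelium and melanocytes, were at 0 in all 32 DMSO wells, and the 5 endothelial markers summed to at most 5.36 CPM in any DMSO well. The 8 keratinocyte and epithelial markers summed to 344 to 587 CPM in DMSO wells, of which KRT10 averaged 447, and 4 leukocyte markers to 92.7 to 184 CPM, of which CD68 averaged 135. The fibroblast markers moved with dose too. They summed to 33961 to 38153 CPM at 0.37 µM, with 11 of 12 lower than in DMSO wells, and to 65686 to 78650 CPM at 1.11 µM, with 3 higher and 4 lower. The median log2 change of the 12 markers was -1.95 at 0.37 µM and 0.13 at 1.11 µM. Their part in the matrix results was not tested.

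The 37 genes together took a smaller share of all counts at 0.37 µM, and a larger share at 1.11 µM, than in most or all DMSO wells. The 4 wells at 0.12 µM had 0.659%, 0.462%, 0.939% and 0.521% of their counts in these genes, those at 0.37 µM had 0.350%, 0.354%, 0.363% and 0.304%, and those at 1.11 µM had 1.83%, 1.63%, 1.82% and 1.57%. DMSO wells had 0.671%, 0.972% and 1.73% as lowest, median and highest. Every well at 0.37 µM lay below every DMSO well, and 2 of the 4 wells at 1.11 µM lay above the highest DMSO well. The summed counts themselves were not higher at 1.11 µM: they were 25692 to 28313 there and 31608 to 37531 at 0.37 µM, against 36681 to 136003 in DMSO wells. Levels at 1.11 µM are thus relative to a smaller total. At 3.33 and 10 µM the wells held 1462 to 3070 and 191 to 393 counts in these genes, so single genes rested on few reads. Counts of the 13 mitochondrial mRNAs moved with the same doses, at 0.0317% to 0.0513% of all counts at 0.37 µM and 0.0143% to 0.0265% at 1.11 µM, against 0.600% to 1.25% in DMSO wells. The part of these mRNAs in the matrix results was not tested. Among the 37 genes, DCN, FN1 and SPARC had the highest DMSO means, at 4691, 1407 and 1113 CPM, so the summed share weighs them most.

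**Figure D1:**
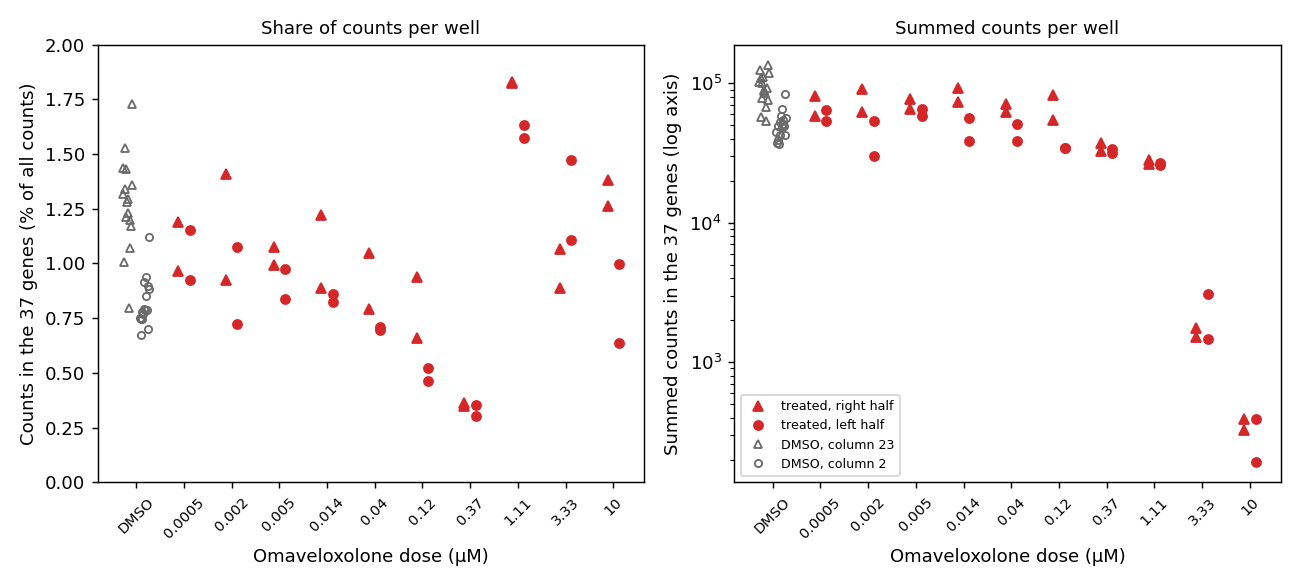
Share of all counts (left, percent) and summed counts (right, log axis) of the 37 matrix genes in each well, by omaveloxolone dose; filled red marks are treated wells and open grey marks DMSO wells, with triangles for the right side or column 23 and circles for the left side or column 2. The 4 wells at 0.37 µM sit at 0.304% to 0.363%, below all DMSO wells, while at 1.11 µM the share is 1.57% to 1.83% although the summed counts are lower than in any DMSO well.

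Genes were compared one by one with edgeR's quasi-likelihood test across all 14264 genes that passed the filter, and a gene was called at a Benjamini-Hochberg adjusted p under 0.05. No gene of the 37 was called at 0.0005, 0.002, 0.005 or 0.014 µM, where 0.00701%, 0.0561%, 0.0771% and 0.217% of all genes tested were called. At an unadjusted p under 0.05 there were 1, 3, 1 and 1 lower and 0 higher at these doses by edgeR, and DESeq2's Wald test called 0 at each of them. Without replicate 3, 1 gene was lower at 0.014 µM. LUM was the 1 gene lower at 0.04 µM and 0 were higher (0.189% of all genes were lower and 0.603% higher). SPARC, THBS2, LUM and PRELP were lower at 0.12 µM and 0 were higher (1.02% of all genes were lower and 1.31% higher). With only the 4 DMSO wells that stood in rows K and L as reference, none of these 4 was called, without the wells at 3.33 and 10 µM in the fit 10 genes were, and DESeq2's Wald test called 9. The count was 2 without replicate 1 or without replicate 2 and 8 without replicate 3. All 4 wells at 0.12 µM lay below all 32 DMSO wells for SPARC and PRELP (0.631% of all genes tested).

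At 0.37 µM 26 of the 37 genes fell and 0 rose, against 13.6% of all genes tested called lower and 11.2% called higher. At an unadjusted p under 0.05 edgeR had 34 lower and 0 higher, and DESeq2's Wald test called 27 lower and 0 higher. The median log2 change of the 37 was -1.54, beside -0.14 over all genes tested, and all 37 had a negative value under this scaling. ASPN and NID2 were at 0 in all 4 wells at 0.37 µM, so their value could only be negative. With DESeq2 size factors the median of all genes moved by 0.25 to 0.11, the share of higher genes among all called genes moved to 63.4%, against 45.1% with the main scaling, and 23 of the 37 were lower with a median of -1.29. Against only the 4 DMSO wells that stood in rows K and L, 18 of 35 tested were lower, and with the 12 wells of the 3 lowest doses in place of DMSO, 25 were. In 13 of the 37 genes every well at 0.37 µM lay below all 32 DMSO wells (5.19% of all genes tested), and the same 13 did so per 1000000 of the well's total; these were FN1, SPARC, THBS2, DCN, LUM, PRELP, FBN1, FBLN5, EFEMP2, MFAP2, MFAP5, LAMA4 and SRPX.

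At 1.11 µM 21 of the 37 rose and 2, LUM and MFAP2, fell, against 9.76% of all genes tested called higher and 13.2% called lower. The median log2 change of the 37 was 1.03, beside -0.20 over all genes. Every well lay above all DMSO wells for 11 genes (2.26% of all genes tested), FN1, THBS1, TNC, TGFBI, BGN, VCAN, FBLN1, FBLN2, FBLN5, MFAP4 and LTBP2. Per 1000000 of the well's total, 8 of these 11 did, and VCAN, FBLN2 and MFAP4 overlapped DMSO. With well totals in place of TMM scaling, an alternative added after the data were seen, 16 were higher and 3 lower at 1.11 µM, with a median of 0.82 beside -0.41 over all genes. EFEMP2 joined the lower genes, and THBS2, SRPX, MFAP5, LAMA4 and NID1 were no longer called. That scaling moved the share of higher genes among all called genes at 1.11 µM to 26.8%, against 42.5% with TMM. The number higher was 13 against only the 4 DMSO wells in rows K and L and 13 in the right side of the plate alone. It was 17 without replicate 1 and 20 without each of the other replicates. Without replicate 2, MFAP2 was the 1 gene lower. In the direct comparison of 1.11 with 0.37 µM, 30 genes were higher and 0 lower (12.1% of all genes were higher), and 33 were higher and 0 lower at an unadjusted p under 0.05 by edgeR. All 4 wells at 1.11 µM lay above all 4 at 0.37 µM in 26 of the 37 (7.82% of all genes tested).

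**Figure D2:**
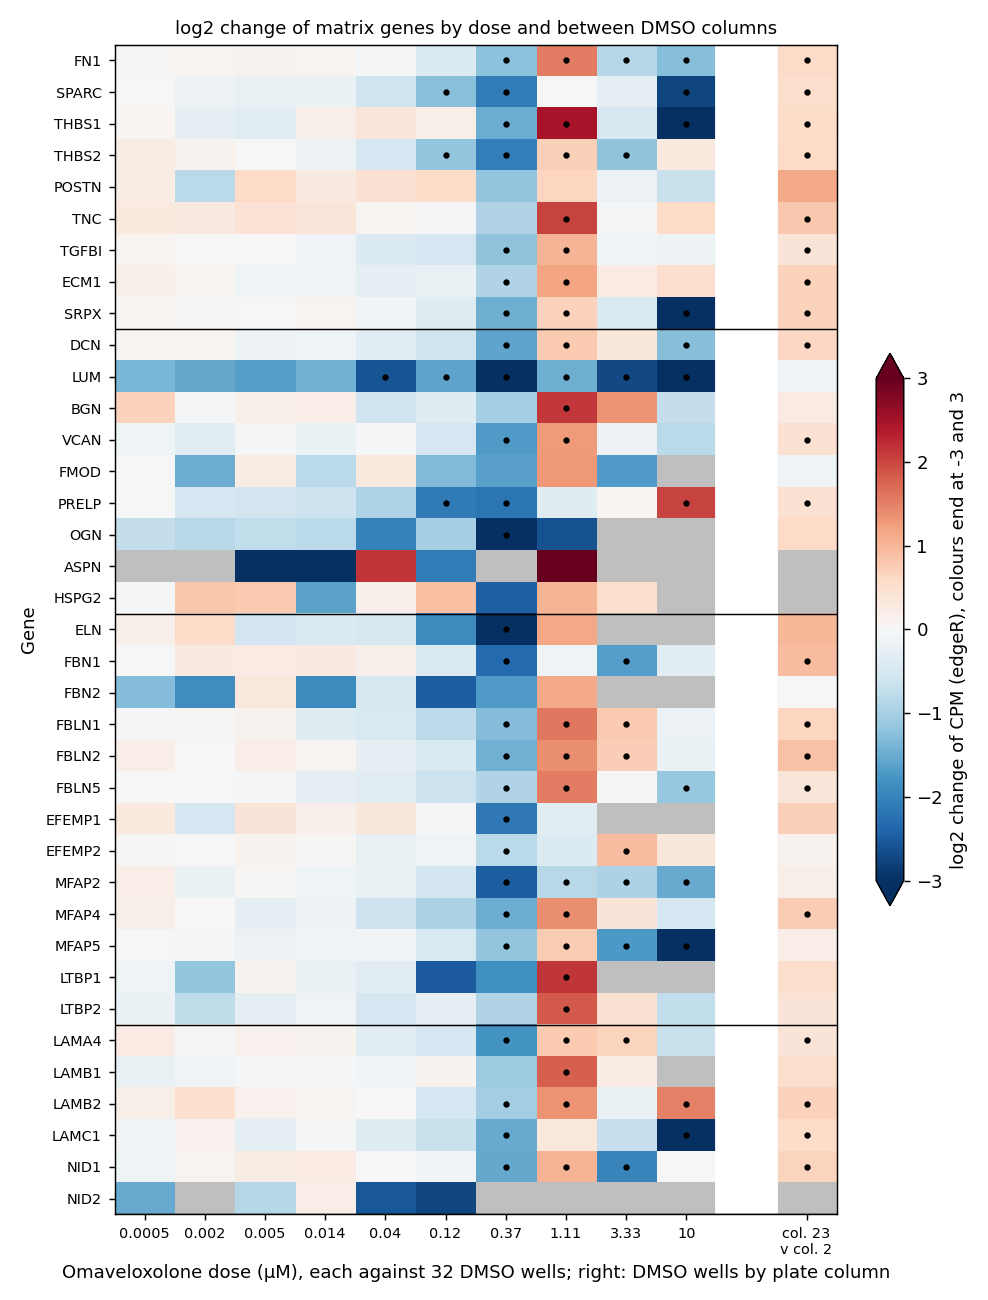
log2 change of each of the 37 genes (rows, in the classes fibronectin and matricellular, proteoglycans, elastic fibre, basement membrane, divided by lines) at each dose against the 32 DMSO wells, and, at the far right, between DMSO wells of column 23 and column 2; dots mark adjusted p under 0.05 and grey marks genes at 0 in all 4 wells or not tested. The column at 0.37 µM is blue in all rows with a value, that at 1.11 µM is mostly red, and the plate column difference is mostly pale red.

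Promoter windows are printed for THBS1 and FBLN2, which rose at 1.11 µM, for PRELP and LAMC1, which were not called there, and for MFAP2, which fell there, to show the letters before the starts of genes that were all lower at 0.37 µM. RefSeq gave 37 windows for 31 of the genes, but 28 of them overlap the gene itself or an exon by GENCODE 29. Of the 9 genes with a window outside both, 6 were called at 0.37 µM; these are printed except OGN, whose call most other settings did not make. Each is the 250 bases before the RefSeq start on GRCh38.p14, 5′ to 3′ on the gene's strand, in which capitals mark matches on either strand to any of 6 motifs. These were the antioxidant response element (TGACNNNGC) bound by NRF2, the AP-1 site (TGANTCA), the GC box (GGGCGG), the CCAAT box (CCAAT), the TATA box (TATAAA) and the TEAD site (GGAATG); the first can overlap an AP-1 site.
THBS1 (chr15:39580829-39581078, plus strand): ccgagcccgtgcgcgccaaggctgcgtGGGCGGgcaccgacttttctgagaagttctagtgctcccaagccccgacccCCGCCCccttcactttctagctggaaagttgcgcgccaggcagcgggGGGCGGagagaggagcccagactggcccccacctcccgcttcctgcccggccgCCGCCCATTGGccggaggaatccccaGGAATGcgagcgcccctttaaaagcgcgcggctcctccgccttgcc
FBLN2 (chr3:13548875-13549124, plus strand): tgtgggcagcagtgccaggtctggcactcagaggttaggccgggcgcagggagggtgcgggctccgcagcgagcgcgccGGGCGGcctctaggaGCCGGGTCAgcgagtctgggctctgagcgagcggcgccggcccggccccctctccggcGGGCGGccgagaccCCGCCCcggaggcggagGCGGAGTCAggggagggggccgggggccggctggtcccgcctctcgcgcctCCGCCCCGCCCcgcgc
PRELP (chr1:203475556-203475805, plus strand): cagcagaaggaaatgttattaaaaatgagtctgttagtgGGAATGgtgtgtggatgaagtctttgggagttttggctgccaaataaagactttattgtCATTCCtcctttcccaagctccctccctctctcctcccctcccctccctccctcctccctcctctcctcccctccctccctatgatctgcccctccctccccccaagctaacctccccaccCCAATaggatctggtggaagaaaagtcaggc
LAMC1 (chr1:183023170-183023419, plus strand): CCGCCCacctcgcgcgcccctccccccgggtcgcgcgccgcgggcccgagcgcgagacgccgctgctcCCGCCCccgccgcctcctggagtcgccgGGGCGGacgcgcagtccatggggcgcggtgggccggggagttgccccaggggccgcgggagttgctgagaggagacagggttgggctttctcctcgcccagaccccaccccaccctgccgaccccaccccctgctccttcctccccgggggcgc
MFAP2 (chr1:16981584-16981833, minus strand): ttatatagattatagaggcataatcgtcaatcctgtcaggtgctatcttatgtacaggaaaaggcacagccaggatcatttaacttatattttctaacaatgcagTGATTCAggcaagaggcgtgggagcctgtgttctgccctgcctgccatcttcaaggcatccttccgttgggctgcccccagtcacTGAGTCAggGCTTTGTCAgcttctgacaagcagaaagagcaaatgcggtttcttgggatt
The deposited gene identifiers of these 5 are ENSG00000137801 for THBS1 (chr15:39581079-39599466), ENSG00000163520 for FBLN2 (chr3:13549131-13638422), ENSG00000188783 for PRELP (chr1:203475828-203491352), ENSG00000135862 for LAMC1 (chr1:183023460-183145592) and ENSG00000117122 for MFAP2 (chr1:16974502-16980835), with coordinates from GENCODE 29 on GRCh38. THBS1 held 4 GC boxes, 1 CCAAT box and 1 TEAD match. FBLN2 held 5 GC boxes and 2 matches to the antioxidant response element. PRELP held 2 TEAD matches and 1 CCAAT box, and LAMC1 held 3 GC boxes. MFAP2 held 1 match to the antioxidant response element and 2 AP-1 matches. FBLN2 and MFAP2 each have a second RefSeq window, not shown. Over all 37 windows, the GC box was in 23 (62.2%, beside 42.6% of all 35116 windows), the antioxidant response element in 5 (13.5% beside 10.9%, in FBLN2, FBLN5, LTBP1 and MFAP2), the AP-1 site in 3 (8.11% beside 6.57%), the CCAAT box in 11 (29.7% beside 32.0%), the TATA box in 7 (18.9% beside 10.7%) and the TEAD site in 5 (13.5% beside 11.9%). DCN, LUM, ELN, EFEMP1, MFAP4 and MFAP5 had no window in the table. A match is a description of the letters and says nothing of binding.

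Among the 9 fibronectin and matricellular genes, 7 fell at 0.37 µM and 7 rose at 1.11 µM, with class medians of -1.23 and 1.03. FN1, the fibril-forming glycoprotein that integrins bind, had 1054, 778, 1374 and 1015 CPM at 0.12 µM and 585, 600.0, 624 and 585 CPM at 0.37 µM, against a lowest of 782, a median of 1387 and a highest of 2199 CPM in DMSO wells. All 4 wells at 0.37 µM lay below the lowest DMSO well, and their range was 585 to 624 CPM. At 1.11 µM the wells had 4316, 3573, 5174 and 3302 CPM, all above the highest DMSO well. The log2 change of FN1 was -1.23 ± 0.18 (SE) at 0.37 µM (edgeR adjusted p = 7.48e-08) and 1.54 ± 0.14 at 1.11 µM (adjusted p = 1.46e-14). Values after ± beside log2 changes are standard errors throughout. SPARC, a collagen-binding matricellular protein, was lower at 0.12 µM as well. It had 428, 333, 676 and 442 CPM at 0.12 µM and 248, 251, 247 and 289 CPM at 0.37 µM, against a lowest of 753, a median of 1035 and a highest of 1607 CPM in DMSO wells, with no overlap at either dose. Its log2 change was -1.24 ± 0.23 at 0.12 µM (adjusted p = 0.000149) and -2.10 ± 0.25 at 0.37 µM (adjusted p = 1.16e-10). At 1.11 µM SPARC had 1417, 1193, 875 and 960.3 CPM, inside the DMSO range.

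The thrombospondins are large matricellular glycoproteins, and THBS1 can release TGF-β from its latent form. THBS2 had 153, 103, 226 and 146 CPM at 0.12 µM and 81.5, 119, 86.5 and 49.1 CPM at 0.37 µM, against a lowest of 136, a median of 353 and a highest of 632 CPM in DMSO wells. It lay below all DMSO wells at 0.37 µM and in 1 of 4 wells at 0.12 µM, with log2 changes of -1.17 ± 0.31 (adjusted p = 0.0191) and -2.07 ± 0.34 (adjusted p = 7.72e-07). At 1.11 µM it had 562, 618, 636 and 502 CPM, of which 1 well passed the highest DMSO well, and a log2 change of 0.71 ± 0.27 (adjusted p = 0.0433), a call lost without replicate 1, 2 or 3 and by DESeq2's Wald test. The call of THBS2 at 0.12 µM was lost without replicate 1 or 2. THBS1 had 129, 69.4, 210.0 and 161 CPM at 0.12 µM, where it did not pass the test, and 35.2, 73.3, 47.9 and 22.2 CPM at 0.37 µM, against a lowest of 45.7, a median of 121 and a highest of 199.9 CPM in DMSO wells. Of the 4 wells at 0.37 µM 2 overlapped the DMSO range, and the call at 0.37 µM did not hold against only the 4 DMSO wells in rows K and L or in the left side alone. At 1.11 µM THBS1 had 592, 349.8, 1188 and 646 CPM from 766, 469, 1413 and 950 counts, all above DMSO. Its log2 change was -1.49 ± 0.34 at 0.37 µM and 2.47 ± 0.25 at 1.11 µM (adjusted p = 2.88e-13).

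TNC, tenascin C of wounds and scars, had 44.1, 66.3, 67.1 and 30.8 CPM at 0.12 µM and 13.4, 58.2, 22.5 and 21.5 CPM at 0.37 µM, against a lowest of 9.87, a median of 48.7 and a highest of 106 CPM in DMSO wells. It did not pass the test at 0.37 µM (log2 change -0.90 ± 0.44, adjusted p = 0.125) and all its wells there overlapped DMSO. At 1.11 µM its wells had 222, 212, 196 and 253 CPM and a log2 change of 2.03 ± 0.34. TGFBI, an integrin-binding protein that TGF-β induces, had 107, 65.5, 76.8 and 95.0 CPM at 0.12 µM and 44.5, 58.9, 67.2 and 42.8 CPM at 0.37 µM, against a lowest of 60.8, a median of 117 and a highest of 172 CPM in DMSO wells. In 3 of 4 wells at 0.37 µM it lay below the lowest DMSO well. ECM1, a secreted glycoprotein of the dermis, had 34.0, 36.4, 85.2 and 46.5 CPM at 0.12 µM and 31.2, 37.0, 32.2 and 24.8 CPM at 0.37 µM, against a lowest of 23.3, a median of 59.2 and a highest of 91.6 CPM in DMSO wells, and its wells overlapped at both doses. SRPX, a sushi-repeat protein, had 367, 221, 346 and 251 CPM at 0.12 µM and 147, 139, 139 and 131 CPM at 0.37 µM, against a lowest of 209, a median of 373 and a highest of 638 CPM in DMSO wells, with no overlap at 0.37 µM. TGFBI, ECM1 and SRPX fell at 0.37 µM, by 1.21, 0.91 and 1.46 on the log2 scale, and rose at 1.11 µM by 1.03, 1.19 and 0.69. The call of ECM1 at 0.37 µM was lost without replicate 4 and that of SRPX at 1.11 µM without replicate 1. POSTN, the matricellular protein periostin, passed at no dose; its wells ranged from 1.02 to 15.4 CPM at 0.37 µM, against 0.541 to 49.0 CPM in DMSO wells.

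Of the 9 proteoglycans and small leucine-rich proteins, 5 fell at 0.37 µM (DCN, LUM, VCAN, PRELP and OGN), and 3 rose at 1.11 µM (DCN, BGN and VCAN), with class medians of -2.20 and 1.01. DCN, decorin, which binds collagen fibrils, had 3225, 2296, 4708 and 2261 CPM at 0.12 µM and 1711, 1624, 1658 and 1299.7 CPM at 0.37 µM, against a lowest of 2762, a median of 4575 and a highest of 8240.4 CPM in DMSO wells. The wells at 0.37 µM lay below all DMSO wells. At 1.11 µM they had 8455, 8203, 8650.4 and 7284 CPM, of which 2 exceeded the highest DMSO well. The log2 change was -1.58 ± 0.21 at 0.37 µM (adjusted p = 3.48e-09) and 0.80 ± 0.17 at 1.11 µM (adjusted p = 0.000214). VCAN, the large hyaluronan-binding proteoglycan versican, had 129, 71.7, 203 and 119 CPM at 0.12 µM and 53.4, 77.1, 54.0 and 43.9 CPM at 0.37 µM, against a lowest of 70.3, a median of 185 and a highest of 314 CPM in DMSO wells. All but 1 well at 0.37 µM lay below the DMSO range. VCAN changed by -1.70 ± 0.26 at 0.37 µM and by 1.29 ± 0.20 at 1.11 µM, where its wells had 339.5, 567, 351 and 546 CPM, all above DMSO on the TMM scale, though not per 1000000 of the well's total. BGN, biglycan, was counted at low levels, 9.80, 0.902, 6.43 and 2.86 CPM at 0.12 µM and 2.40, 2.87, 3.16 and 4.40 CPM at 0.37 µM, against a lowest of 0, a median of 6.48 and a highest of 11.9 CPM in DMSO wells. These wells overlapped. At 1.11 µM BGN had 34, 70, 18 and 28 counts, or 26.3, 52.2, 15.1 and 19.0 CPM, all above DMSO, and a log2 change of 2.11 ± 0.46 (adjusted p = 0.000272).

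PRELP, a leucine-rich protein of connective tissue, was lower at 0.12 and 0.37 µM and higher at 10 µM. It had 13.8, 5.86, 19.7 and 4.72 CPM at 0.12 µM and 17.6, 8.18, 9.07 and 6.86 CPM at 0.37 µM, against a lowest of 20.5, a median of 47.0 and a highest of 96.7 CPM in DMSO wells. All 8 wells lay below the DMSO range, with log2 changes of -2.11 ± 0.37 (adjusted p = 4.42e-05) and -2.20 ± 0.37 (adjusted p = 2.13e-06) against DMSO. Its level at 0.37 µM did not pass a test against 0.12 µM (log2 difference -0.09 ± 0.42, adjusted p = 0.948). At 10 µM it had 12, 17, 6 and 16 counts, or 196, 229, 105 and 252 CPM after TMM scaling, all above DMSO, and 426, 432, 234 and 531 per 1000000 of the well's total, also all above DMSO (log2 change 2.04 ± 0.37, adjusted p = 1.01e-05). FMOD and OGN, small leucine-rich proteoglycans, had medians of 4.27 and 5.00 CPM in DMSO wells, ASPN, asporin, had a median of 0, and HSPG2, perlecan of the basement membrane, had a median of 1.12 CPM. OGN, osteoglycin, was called lower at 0.37 µM with 4, 5, 0 and 6 counts, a call that 13 of 18 other settings did not make.

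LUM, lumican, which regulates collagen fibril growth, lay below the DMSO median in every treated well. It had 25.2, 72.4, 43.3 and 91.8 CPM at 0.0005 µM, 16.0, 15.7, 50.8 and 17.2 CPM at 0.04 µM, 51.1, 21.6, 88.1 and 40.6 CPM at 0.12 µM and 16.7, 16.5, 23.5 and 11.8 CPM at 0.37 µM, against a lowest of 33.2, a median of 137 and a highest of 335 CPM in DMSO wells. None of the 28 wells from 0.0005 to 0.37 µM exceeded the DMSO median, and 15 of them lay inside the DMSO range. The log2 change was -1.37 ± 0.44 at 0.0005 µM (adjusted p = 1), -2.59 ± 0.49 at 0.04 µM (adjusted p = 0.000376) and -3.14 ± 0.51 at 0.37 µM (adjusted p = 7.61e-07). With the 12 wells of the 3 lowest doses as reference, it was -0.06 at 0.12 µM, -1.62 at 0.37 µM (adjusted p = 0.00808) and 0.05 at 1.11 µM. Its level also differed across the plate. The treated wells of the right side had 16.0, 70.1 and 96.7 CPM as lowest, median and highest, against 2.77, 25.2 and 49.1 CPM in the left side (14 wells each). DMSO wells in the 4 outer rows A, B, O and P had 142, 249.9 and 335 CPM, against 33.2, 117 and 201 CPM in rows C to N, a grouping made after the values were seen. Since all treated wells stood in rows K and L and columns 3 to 22, treatment and plate position cannot be told apart for LUM at the low doses. Its call at 0.12 µM was lost without replicate 1, 2 or 4, and its call at 1.11 µM without replicate 2.

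**Figure D3:**
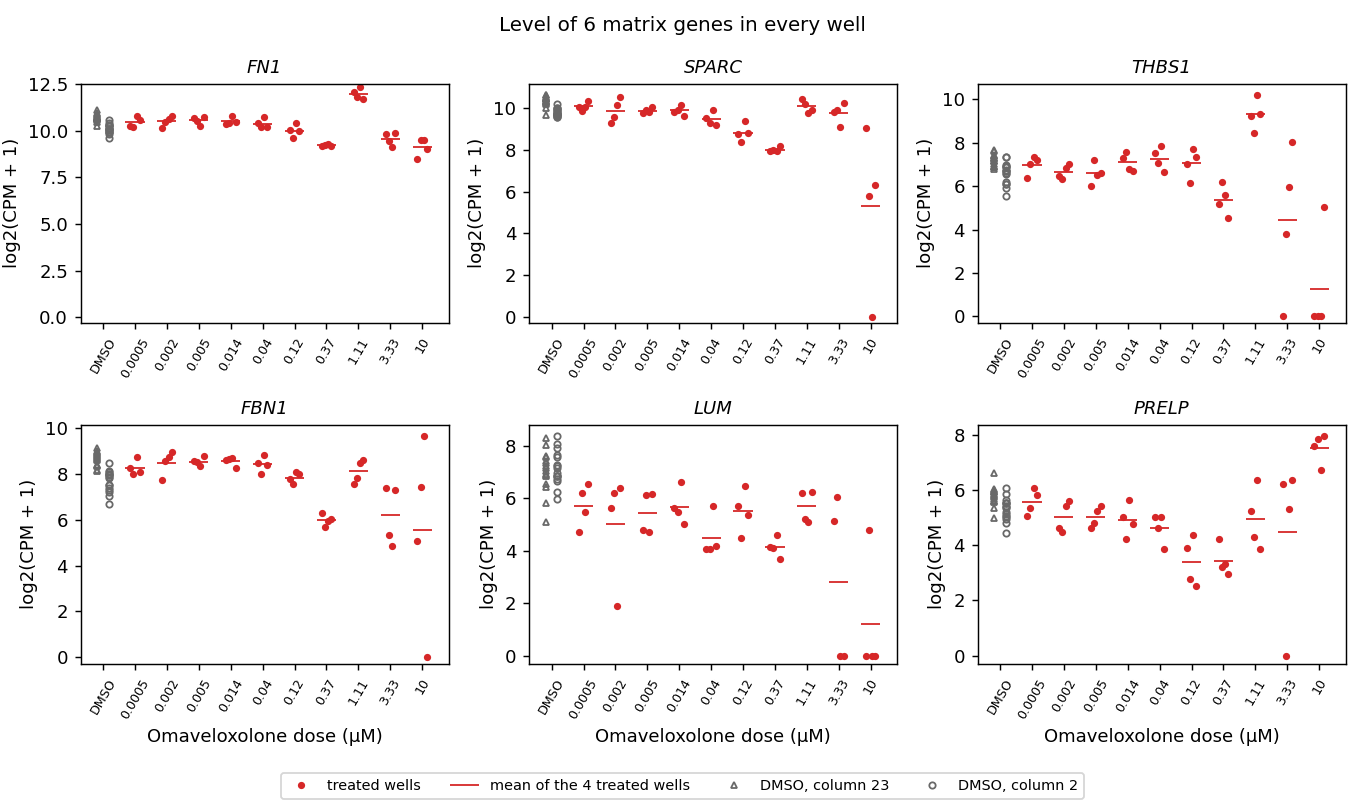
Level of FN1, SPARC, THBS1, FBN1, LUM and PRELP in each well on the log2(TMM-scaled CPM + 1) scale, by omaveloxolone dose in µM; red points are the 4 treated wells of a dose with a line at their mean, and open grey marks are the 32 DMSO wells. At 0.37 µM FN1 lies below all DMSO wells and THBS1 in 2 of 4 wells, at 1.11 µM both lie above all of them, SPARC and PRELP lie below all DMSO wells at 0.12 and 0.37 µM, and LUM is below the DMSO median at every dose.

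The 13 elastic fibre genes included 10 that fell at 0.37 µM and 7 that rose at 1.11 µM, with class medians of -1.49 and 1.15; none was called at 0.12 µM. FBN1, fibrillin 1, the backbone of microfibrils, had 217, 190.0, 269 and 253 CPM at 0.12 µM and 78.3, 50.3, 60.3 and 64.1 CPM at 0.37 µM, against a lowest of 104, a median of 289 and a highest of 573 CPM in DMSO wells. The wells at 0.37 µM lay below all DMSO wells and those at 0.12 µM did not. At 1.11 µM FBN1 had 189, 225, 355 and 387 CPM, inside the DMSO range. The log2 change at 0.37 µM was -2.32 ± 0.37 against DMSO (adjusted p = 4.51e-07) and -1.88 ± 0.42 against 0.12 µM (adjusted p = 0.000954). MFAP2, a small microfibril glycoprotein, had 96.4, 89.1, 95.4 and 85.7 CPM at 0.12 µM and 20.5, 27.1, 28.9 and 20.0 CPM at 0.37 µM, against a lowest of 79.5, a median of 138 and a highest of 178 CPM in DMSO wells. Its wells at 0.37 µM lay below all DMSO wells, and its log2 change was -2.48 ± 0.26 (adjusted p = 2.23e-12). MFAP2 was still lower at 1.11 µM, at 73.5, 59.7, 110.1 and 61.8 CPM (log2 change -0.82 ± 0.24, adjusted p = 0.007). ELN, the elastin monomer, had 0, 7, 0 and 1 counts in the 4 wells at 0.37 µM, or 0, 0.773, 0 and 0.102 CPM, against a lowest of 0, a median of 10.8 and a highest of 21.7 CPM in DMSO wells, and 1 DMSO well was also at 0. Its log2 change at 0.37 µM was -5.37 ± 1.07 (adjusted p = 5.19e-05). At 1.11 µM ELN had 33, 0, 45 and 36 counts and did not pass (log2 change 1.15 ± 0.63).

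Fibulins link elastin, microfibrils and basement membrane, and FBLN1, FBLN2 and FBLN5 fell at 0.37 µM and rose at 1.11 µM. FBLN1 had 159, 134, 257 and 117 CPM at 0.12 µM and 132, 124, 135 and 76.2 CPM at 0.37 µM, against a lowest of 128, a median of 285 and a highest of 443 CPM in DMSO wells. FBLN2 had 159, 149, 258 and 126 CPM at 0.12 µM and 66.0, 89.6, 95.4 and 97.5 CPM at 0.37 µM, against a lowest of 87.2, a median of 248 and a highest of 490.0 CPM in DMSO wells. At 0.37 µM 2 wells of FBLN1 and 1 of FBLN2 lay below the lowest DMSO well. FBLN5, needed for elastic fibre assembly in mice, had 113, 84.9, 192 and 138 CPM at 0.12 µM and 118, 103, 114 and 112 CPM at 0.37 µM, against a lowest of 128, a median of 203 and a highest of 307 CPM in DMSO wells, with no overlap at 0.37 µM. At 1.11 µM the wells had 1253, 814, 554 and 843 CPM of FBLN1, 702, 638, 586 and 561 CPM of FBLN2 and 829.8, 374, 636 and 584 CPM of FBLN5, every one above every DMSO well, except that FBLN2 overlapped DMSO per 1000000 of the well's total. The log2 changes of FBLN1, FBLN2 and FBLN5 were -1.30, -1.44 and -0.90 at 0.37 µM, and 1.59, 1.39 and 1.54 at 1.11 µM. The call of FBLN2 at 0.37 µM was lost in the left side alone. EFEMP1, fibulin 3, had 11.5, 18.8, 30.5 and 3.03 CPM at 0.12 µM and 5.15, 3.31, 4.59 and 1.94 CPM at 0.37 µM, against a lowest of 2.79, a median of 16.1 and a highest of 34.2 CPM in DMSO wells, and changed by -2.14 ± 0.59 at 0.37 µM (adjusted p = 0.00408) but did not pass at 1.11 µM. EFEMP2, fibulin 4, had 80.6, 70.5, 85.8 and 61.4 CPM at 0.37 µM, below all DMSO wells (97.9, 129 and 162 CPM as lowest, median and highest), and its log2 value at 1.11 µM was -0.40 ± 0.21 (adjusted p = 0.171).

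MFAP4 and MFAP5 are microfibril-associated proteins. MFAP4 had 40.0, 30.4, 95.8 and 31.3 CPM at 0.12 µM and 33.3, 32.8, 38.9 and 30.2 CPM at 0.37 µM, against a lowest of 28.1, a median of 92.6 and a highest of 181 CPM in DMSO wells. MFAP5 had 80.2, 51.1, 90.9 and 50.0 CPM at 0.12 µM and 44.3, 33.9, 41.8 and 43.4 CPM at 0.37 µM, against a lowest of 55.3, a median of 94.8 and a highest of 149 CPM in DMSO wells. MFAP5 lay below all DMSO wells at 0.37 µM, whereas the wells of MFAP4 reached into the lowest part of the DMSO range. Both fell at 0.37 µM, by 1.49 and 1.19 on the log2 scale, and rose at 1.11 µM, by 1.39 and 0.77. The call of MFAP5 at 1.11 µM was lost without replicate 4. The latent TGF-β binding proteins did not pass the test at 0.37 µM. LTBP1 had 3.84, 4.36, 0.485 and 0.337 CPM at 0.12 µM and 1.60, 3.31, 3.77 and 5.42 CPM at 0.37 µM, against a lowest of 0.820, a median of 10.6 and a highest of 31.7 CPM in DMSO wells. LTBP2 had 34.5, 22.4, 38.6 and 11.6 CPM at 0.12 µM and 17.3, 11.0, 12.4 and 27.0 CPM at 0.37 µM, against a lowest of 9.66, a median of 27.7 and a highest of 64.0 CPM in DMSO wells. Their wells overlapped DMSO at 0.37 µM. At 1.11 µM LTBP1 had 28.6, 78.3, 110.1 and 10.2 CPM (log2 change 2.15 ± 0.56) and LTBP2 123, 87.3, 104 and 141 CPM (log2 change 1.85 ± 0.31), and of these 2 genes LTBP2 lay above all DMSO wells. FBN2, fibrillin 2, passed at no dose and had a DMSO median of 2.70 CPM.

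The basement membrane genes included 4 of 6 that fell at 0.37 µM (LAMA4, LAMB2, LAMC1 and NID1) and 4 that rose at 1.11 µM (LAMA4, LAMB1, LAMB2 and NID1), with class medians of -1.53 and 0.90. LAMA4, a laminin α chain of vessels and mesenchyme, had 117, 82.8, 102 and 90.3 CPM at 0.12 µM and 35.9, 36.6, 47.1 and 41.0 CPM at 0.37 µM, against a lowest of 86.6, a median of 137 and a highest of 202 CPM in DMSO wells, without overlap at 0.37 µM. Its log2 change was -1.79 ± 0.29 (adjusted p = 6.71e-07), and at 1.11 µM, with 279, 183, 222 and 277 CPM, 0.79 ± 0.23 (adjusted p = 0.00905). LAMC1, the γ chain shared by most laminins, had 108, 86.3, 143 and 77.8 CPM at 0.12 µM and 50.1, 30.9, 82.1 and 67.0 CPM at 0.37 µM, against a lowest of 47.7, a median of 157 and a highest of 271 CPM in DMSO wells. Of the wells at 0.37 µM 1 lay below the lowest DMSO well. LAMB1 and LAMB2 are laminin β chains. LAMB1 had 37.2, 24.0, 48.9 and 12.5 CPM at 0.12 µM and 8.81, 7.29, 16.0 and 21.6 CPM at 0.37 µM, against a lowest of 6.87, a median of 26.8 and a highest of 53.7 CPM in DMSO wells, and did not pass at 0.37 µM (adjusted p = 0.053). LAMB2 had 15.1, 11.6, 22.4 and 11.1 CPM at 0.12 µM and 9.84, 7.62, 11.8 and 12.9 CPM at 0.37 µM, against a lowest of 9.56, a median of 19.8 and a highest of 42.7 CPM in DMSO wells. NID1, nidogen 1, which joins laminin to collagen IV, had 47.9, 10.7, 37.4 and 52.2 CPM at 0.12 µM and 11.3, 10.6, 15.4 and 16.7 CPM at 0.37 µM, against a lowest of 14.1, a median of 35.9 and a highest of 73.1 CPM in DMSO wells. In NID1 2 of 4 wells at 0.37 µM were below the DMSO range, and in LAMB2 1 was. LAMC1, LAMB2 and NID1 fell at 0.37 µM, by 1.52, 1.03 and 1.54 on the log2 scale. At 1.11 µM LAMB1 had 18.6, 32.8, 214 and 133 CPM, a wide spread, LAMB2 had 41.8, 65.6, 51.3 and 61.2 CPM and NID1 had 106, 88.0, 94.1 and 29.9 CPM, with log2 changes of 1.80, 1.35 and 1.02. Without replicate 1 the calls of LAMA4 and NID1 at 1.11 µM were lost, and that of LAMB2 at 0.37 µM was lost without replicate 1 or 2. NID2, nidogen 2, was at 0 in all 4 wells at 0.37 and at 1.11 µM and had a DMSO median of 0 CPM.

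Along the dose series from 0.0005 to 0.37 µM, in treated wells alone, 21 of 35 genes tested fell with dose and 0 rose, against 9.33% of the 13058 genes tested that fell and 10.6% that rose. All 35 had a negative slope; at an unadjusted p under 0.05 edgeR had 25 falling and 0 rising. SPARC changed by -0.67 ± 0.09 log2 units for each 10-fold step of dose, THBS2 by -0.75 ± 0.08 and PRELP by -0.78 ± 0.13, each past the threshold. FN1 changed by -0.37 ± 0.07 and FBN1 by -0.55 ± 0.15, also past it. All 21 genes that fell were among the 26 called lower at 0.37 µM, and the wells of that dose are part of this trend. From 0.0005 to 0.37 µM the median log2 change of the 37 against DMSO was 0.02, -0.03, -0.01, -0.10, -0.27, -0.52 and -1.54. A slope thus averages over uneven steps. The trend uses no DMSO well, but plate column falls as dose rises in each side, so dose and column order cannot be told apart in it. LUM did not pass in it (slope -0.42 ± 0.19), nor did THBS1 (slope -0.14 ± 0.14). Between neighbouring doses, 0 genes differed at 0.12 against 0.04 µM (0.014% of all genes; 3 lower and 0 higher at an unadjusted p under 0.05 by edgeR), and 12 were lower and 0 higher at 0.37 against 0.12 µM (5.6% of all genes were lower and 2.52% higher). The count at 0.37 against 0.12 µM was 3 with DESeq2 size factors and 4 and 7 without replicate 3 and without replicate 4.

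At 3.33 µM 4 of the 37 were higher and 10 lower, against 7.35% and 32.9% of all genes. FBLN1, FBLN2, LAMA4 and EFEMP2 were the 4 higher, and without replicate 3 the number lower was 6. FBLN1 had 608, 535, 405 and 431 CPM and FBLN2 384, 450.4, 348 and 402 CPM, while LAMA4 had 373, 294, 236 and 0 CPM, with 1 well at 0. ELN, EFEMP1, LTBP1, OGN, FBN2, ASPN and NID2 were at 0 in all 4 wells, which puts EFEMP1 at least 4.13-fold, LTBP1 at least 3.04-fold and ELN at least 2.49-fold lower than DMSO (a floor of 3 counts over the group, on the TMM scale). At 10 µM 2 were higher, PRELP and LAMB2, and 11 lower, against 3.36% and 31.8% of all genes; with DESeq2 size factors 5 were higher and 5 lower, and the share of higher genes among all called genes moved to 31.6%, against 9.55% with the main scaling. With well totals in place of TMM scaling, 6 were higher and 4 lower at 10 µM, and that share was 41.3%. Without replicate 2, 1 was higher at 10 µM. FN1 still had 22, 54, 41 and 33 counts at 10 µM. That is 359, 727, 719 and 520.0 CPM after TMM scaling, below all DMSO wells, but 780.4, 1371, 1599 and 1096 per 1000000 of the well's total, inside the DMSO range of 742 to 2147. FN1, one of the 11 lower at 10 µM, was not called with well totals. Of 11 genes with all wells at 10 µM below DMSO on the TMM scale (41.9% of all genes tested), 6 were so per 1000000 of the well's total, so for some genes the separation from DMSO at 10 µM depends on the scaling. DCN had 182, 108, 109 and 94 counts, LAMC1 had 1 count in 4 wells, and LAMB1 had 0. At 3.33 against 1.11 µM 20 genes were lower and 1, EFEMP2, higher (27.6% and 7.12% of all genes); 11 were lower without replicate 3, and 11 with well totals in place of TMM scaling.

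Many of the 37 also differed between the 2 columns of DMSO wells. Each column held 16 such wells. Of 34 matrix genes tested 20 were higher in column 23 and 0 lower, against 3.3% of the 11259 genes tested that were higher and 2.83% that were lower. At an unadjusted p under 0.05 edgeR had 26 higher and 0 lower, and DESeq2's Wald test called 21 higher and 0 lower. The median difference was 0.55 on the log2 scale, and 32 of 34 were positive. DCN averaged 5695 ± 1139 CPM in column 23 and 3688 ± 533 CPM in column 2 (SD, n = 16 each), a log2 difference of 0.61 ± 0.08 (adjusted p = 5.05e-07). FN1 averaged 1689.7 ± 222 CPM in column 23 and 1125 ± 189 CPM in column 2, and FBN1 averaged 416 ± 84.2 CPM in column 23 and 216 ± 66.2 CPM in column 2. FBN1 had a log2 difference of 0.93 ± 0.12 and FBLN2 of 0.87 ± 0.12. SRPX differed by 0.68 ± 0.08 and SPARC by 0.54 ± 0.07, both past the threshold. LUM, at 146 ± 71.7 CPM in column 23 and 155 ± 73.9 CPM in column 2, did not pass. No matrix gene had all wells of 1 column above all of the other (0.0% of all genes). By class, 8 of 9 fibronectin and matricellular genes tested were higher in column 23, 3 of 7 proteoglycans, 5 of 13 elastic fibre genes and 4 of 5 basement membrane genes.

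The 2 columns also differed in depth. Total counts averaged 7206484 in column 23 and 6107623 in column 2, the 37 genes took 1.27% ± 0.216 of counts in column 23 and 0.821% ± 0.111 in column 2 (SD, n = 16 each), and mitochondrial mRNAs took 0.893% to 1.25% in column 23 and 0.600% to 1.01% in column 2. Of 12 fibroblast markers 7 were higher and 2 lower in column 23. The part of depth or of these markers in the column difference was not tested. With plate row as a block 18 of the 34 were higher, and without the outer rows A and P also 18. A slope along rows A to P, added after the data were seen, was called for 0 of the 34 matrix genes and 0.0% of all genes by edgeR, with 2 positive and 1 negative at an unadjusted p under 0.05. A straight slope can miss a pattern that is high toward both ends of the rows, as the DMSO levels of LUM were.

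Treated wells, at 0.0005 to 0.37 µM and with dose in the model, were also compared between plate sides. In 14 wells of the right side against 14 of the left, 3 of 33 matrix genes tested, DCN, LUM and POSTN, were higher and 0 lower, against 0.899% of the 11238 genes tested that were higher and 0.489% that were lower. At an unadjusted p under 0.05 edgeR had 12 higher and 0 lower. The median difference was 0.22 on the log2 scale and 29 of 33 were positive. DCN differed by 0.32 ± 0.08, LUM by 1.13 ± 0.24 and POSTN by 1.16 ± 0.30. FN1 differed by 0.17 ± 0.07 and FBLN2 by 0.11 ± 0.11, neither past the threshold. The number called was 0 without replicate 3 or without replicate 4, and 1 without replicate 1. Across the 33 genes, these differences and those between DMSO columns had a Pearson r of -0.14, beside 0.10 over 11032 genes. The sign was the same in 27 of the 33. As 31 of the 33 were positive between columns and 29 between sides, 27 is the fewest matches these counts allow. Over the 11032 genes the sign was the same in 58.1%, but only 5172 were positive between columns and 5597 between sides, so that share is no baseline for the 33. Of the 20 genes called between DMSO columns, 1, DCN, was also called between sides. Columns 2 and 23 are closer to the plate's edges than the treated columns, so the DMSO and the treated comparison differ in position as well as treatment.

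**Figure D4:**
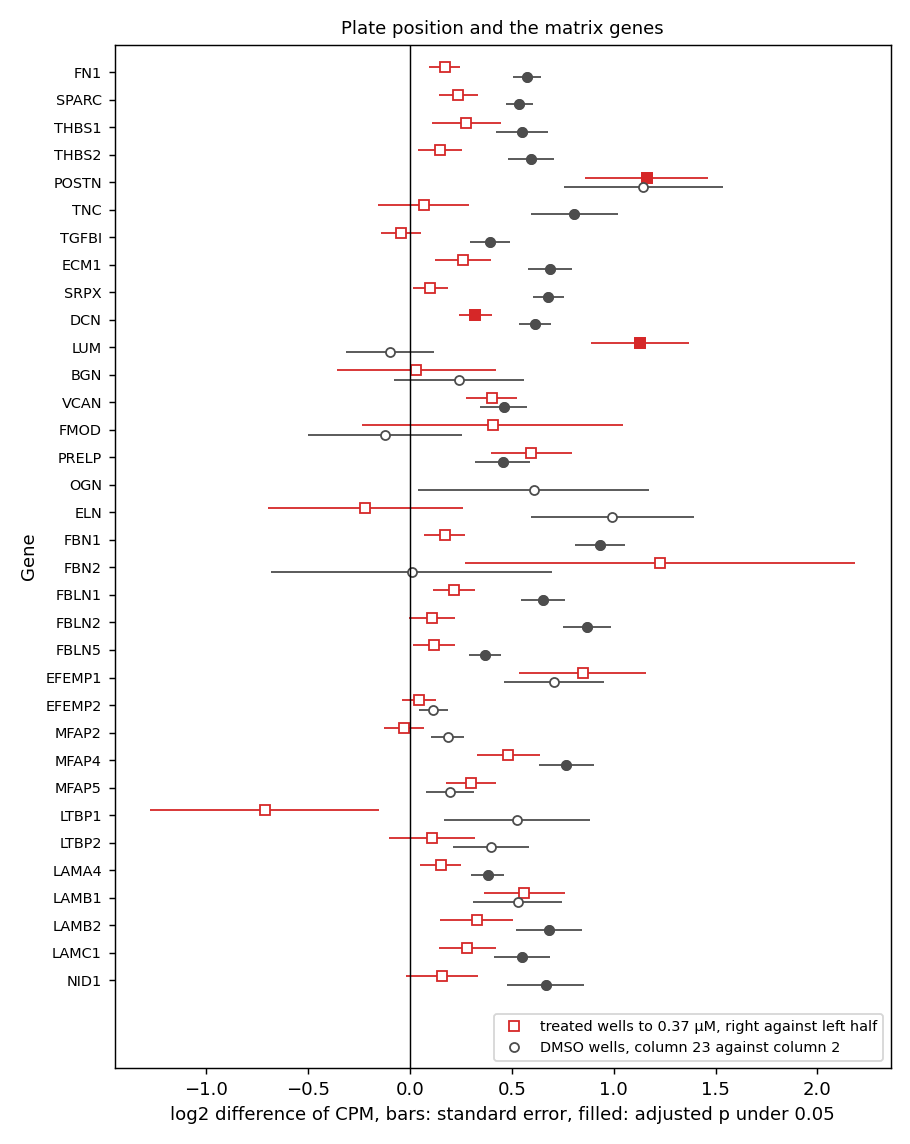
log2 difference, with its standard error, of matrix genes between the right and left side among treated wells up to 0.37 µM (red squares) and between column 23 and column 2 among DMSO wells (grey circles); filled marks passed an adjusted p under 0.05. In DMSO wells 32 of 34 values are above 0 with a median of 0.55, and in treated wells 29 of 33 with a median of 0.22. Across the 33 genes with both values, Pearson r was -0.14.

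Set beside the plate column difference, the change at 0.37 µM was larger in size in all 34 genes that had both values, with medians of 1.50 and 0.55 log2 units. At 0.12 µM it was larger in 20 of the 34 (medians 0.52 and 0.55), and at 1.11 µM in 28 (medians 1.17 and 0.55). These comparisons share the DMSO wells. Against column 23 alone, all 4 wells at 0.12 µM lay below all 16 DMSO wells in 8 of 37 genes (1.31% of all genes tested), and against column 2 alone in 2 (0.96%). Against column 23 alone, all 4 wells at 0.37 µM lay below all 16 DMSO wells in 25 of 37 genes (8.0% of all genes tested), and against column 2 alone, whose levels were lower, in 13 (6.57%). At 1.11 µM all 4 wells lay above all 16 wells of column 23 in 11 genes (2.94% of all genes tested) and of column 2 in 17 (3.03%). With plate side as a covariate, 25 were lower at 0.37 µM and 21 higher at 1.11 µM. In the right side alone, against column 23, 25 were lower at 0.37 µM and 13 higher at 1.11 µM; in the left side alone, against column 2, the numbers were 21 and 19. The dose effect itself did not pass a test of a difference between sides in any of the 37 genes at 0.12, 0.37 or 1.11 µM (0.0318%, 0.0191% and 4.87% of all genes). Each dose had only 2 wells in each side, so this test could miss a difference. The median difference of the 37, right minus left, was 0.03 log2 units at 0.12 µM, -0.61 at 0.37 µM and -0.28 at 1.11 µM. At 0.37 µM 30 of the 37 were negative and 7 positive, with a median of -0.06 over all genes. At an unadjusted p under 0.05, edgeR had 1 more positive in the right side and 0 more negative at 0.12 µM, 1 and 5 at 0.37 µM, and 3 and 3 at 1.11 µM.

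Other genes of the matrix, on lists chosen apart from the 37, were counted in the same fits. Over all genes tested, 13.6% were lower and 11.2% higher at 0.37 µM, 9.76% higher and 13.2% lower at 1.11 µM, and 3.3% higher and 2.83% lower in column 23. Of 56 other matrix glycoproteins and proteoglycans tested, 26 (46.4%) were lower and 0 higher at 0.37 µM, 14 (25.0%) higher and 2 (3.57%) lower at 1.11 µM, and, of 44 tested between DMSO columns, 18 (40.9%) were higher in column 23 and 0 lower. CTHRC1, a secreted protein of injured tissue, averaged 14.8 ± 8.78 CPM at 0.37 µM and 204 ± 39.6 CPM in DMSO wells (SD, n = 4 and 32), and IGFBP3, which binds insulin-like growth factors, averaged 89.3 ± 15.6 CPM at 0.37 µM and 763 ± 158 CPM in DMSO wells. Among 28 matrix receptors tested, 11 (39.3%) were lower and 1 (3.57%) higher at 0.37 µM, and 13 (46.4%) higher and 0 lower at 1.11 µM. Of 26 receptors tested between DMSO columns, 7 (26.9%) were higher in column 23 and 0 lower. SDC1, a heparan sulfate proteoglycan of the cell surface, changed by -1.88 ± 0.33 at 0.37 µM. Of 18 TGF-β ligands, receptors and SMADs, 6 (33.3%) were lower at 0.37 µM and 1 (5.56%) higher, a share below that of all genes called higher. TGFB1, the ligand, was that gene and rose by 1.11 on the log2 scale, while TGFBR3, the co-receptor betaglycan, changed by -2.77 ± 0.39. At 1.11 µM 3 of the 18 (16.7%) were higher and 2 (11.1%) lower. Of 17 tested between DMSO columns, 1 (5.88%) was higher in column 23 and 1 (5.88%) lower. Of 36 genes that assemble glycosaminoglycan chains, 9 (25.0%) were lower and 4 (11.1%) higher at 0.37 µM, the share of higher genes being near that of all genes. CSGALNACT2, which starts chondroitin chains, rose by 1.70 and UXS1, which makes the xylose donor, changed by -1.79 ± 0.39. At 1.11 µM 6 of these 36 genes (16.7%) were higher and 3 (8.33%) lower. Of 34 tested between DMSO columns, 3 (8.82%) were higher in column 23 and 0 lower.

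For 13 of the 37, THBS1, BGN, OGN, ASPN, HSPG2, FBN2, EFEMP2, MFAP4, MFAP5, LTBP1, LAMA4, LAMB1 and NID2, another counted gene overlaps on the opposite strand, and whether the counting used strand was not given in the sources used here.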

How the data were processed

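The authors deposited raw counts per gene and well, and the submitters' processing notes name kallisto, bustools and GRCh38; versions, annotation, molecular identifier collapse and strand setting were not given in the sources used here. The 37 genes and the other lists were chosen with earlier results of these data known. Gene identifiers were paired with symbols through the supplied name table (23152 of 23170) and 1 pseudogene was left out of library sizes and tests. The protocol in the labels mentions 16 DMSO wells per plate, while 32 wells carry that label, and all 32 were used. No 2 wells held identical values.

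CPM values were computed as counts per 1000000 of the effective library size (well total times the TMM factor of the fit over all 72 wells). Differences were fitted over all genes with edgeR 4.0.16 in R 4.3.3 (scaled by TMM, filtered by filterByExpr at a minimum count of 10, with the robust quasi-likelihood test, Benjamini-Hochberg adjustment, threshold 0.05). All 72 wells shared one fit for the comparisons of doses, and separate fits served the dose trend, the DMSO columns, the plate sides and their interaction. DESeq2 1.42.0 was an alternative, as were size factors, well totals without TMM (added after the data were seen), no filter, other reference wells, plate side as a covariate, single doses, blocks, each plate side alone and leaving out each replicate. The main fit was also run on simulated counts in which 200 genes changed 2-fold at 0.37 µM. It recovered 46% of them, and 4.17% of the genes it called were unchanged. The simulated wells had no plate position differences, so the fits were not tested under such differences.

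Values in every well are given for 28 genes: the 12 with the highest DMSO mean, 6 further ones with the largest called change at 0.37 µM among those with a mean of at least 10 CPM, and all called higher at 0.12, 0.37 or 1.11 µM. Other genes singled out were chosen after their values were seen. From each other list up to 4 genes were eligible to be named. Figures were drawn with matplotlib 3.10.9. Fold bounds against 0 counts use a floor of 3 counts over the 4 wells. Such bounds cover counting error only.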

Additional observations from a re-analysis of the deposited data

Results flagged for a closer look

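In 2 of 56 sets of 4 wells tested, 1 well stood apart from the other three by Dixon's criterion, which flags about 1 set in 20 by chance. SPARC had 289 CPM in replicate 4 at 0.37 µM, against 247 to 251 CPM in the other wells of that dose, and it lay below every DMSO well there too. FBLN1 had 76.2 CPM in replicate 4 at 0.37 µM, against 124 to 135 CPM in the other wells of that dose.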

How the results depend on the processing

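The 26 genes lower at 0.37 µM numbered 18 to 29 under the alternatives, and the 20 higher in DMSO column 23 numbered 18 to 22. Other counts moved more, and the cause was not tested. With the 3 lowest doses as reference, the numbers were 0 lower at 0.04 µM, 1 lower at 1.11 µM and 2 higher at 3.33 µM, and LUM at 1.11 µM changed sign, to 0.050 on the log2 scale. Against only the 4 DMSO wells in rows K and L, they were 0 lower at 0.04 and 0.12 µM, 13 higher and 0 lower at 1.11 µM, 6 lower at 3.33 µM and 1 higher at 10 µM. With DESeq2 size factors, they were 5 higher and 5 lower at 10 µM and 3 lower at 0.37 against 0.12 µM; with its Wald test, 9 lower at 0.12 µM and 6 higher and 6 lower at 10 µM. With well totals in place of TMM, they were 6 higher and 4 lower at 10 µM and 11 lower at 3.33 against 1.11 µM; among all called genes the share of higher ones moved to 64.9% at 0.04 µM and 44.9% at 0.12 µM, against 76.1% and 56.3%. Plate side as a covariate gave 7 lower at 0.12 µM, leaving the 3.33 and 10 µM wells out gave 10, and single doses gave 2 lower at 0.04 µM and 10 at 0.12 µM. The right side alone gave 2 lower at 0.12 µM, and 13 higher and 0 lower at 1.11 µM. No filter on low counts gave 8 higher in the right plate side.

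Deviations of treated wells and of same-numbered DMSO wells, which stood in rows A and B, correlated above 0.1 in 1 of 40 pairs (range -0.13 to 0.13). Such pairs cannot show whether treated wells share a position effect. In treated wells, replicates 1 and 2 stood in row K and 3 and 4 in row L. The row L well of the right side had the highest share of counts in the 37 genes at each dose from 0.0005 to 0.37 µM, with 1.41% at 0.002 µM and 0.939% at 0.12 µM. The part of position in this was not tested. The fit with the replicate block kept only DMSO replicates 1 to 4 as reference, so block and reference changed together. In it, with 35 of the 37 genes tested, 1 gene was lower at 0.12 µM and 20 at 0.37 µM. It had 8 higher and 0 lower at 1.11 µM, 0 higher at 3.33 µM and 1 higher at 10 µM. The block of plate row and side was fitted with only the 4 DMSO wells in rows K and L, so there too block and reference changed together. It gave 0 lower at 0.04 µM, 1 at 0.12 µM, and 12 higher and 0 lower at 1.11 µM. At 3.33 µM it gave 2 higher and 6 lower, and at 10 µM 1 higher.

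Leaving out each replicate gave 0 to 1 lower at 0.014 µM, 2 to 8 at 0.12 µM, 24 to 26 at 0.37 µM, 1 to 3 at 1.11 µM, 6 to 11 at 3.33 µM and 8 to 11 at 10 µM. It gave 17 to 20 higher at 1.11 µM, 3 to 5 at 3.33 µM and 1 to 3 at 10 µM. For 0.37 against 0.12 µM it gave 4 to 10 lower, for 3.33 against 1.11 µM 11 to 17 lower, and for the plate sides 0 to 2 higher. At 3.33 and 10 µM, with 1462 to 3070 and 191 to 393 counts per well in the 37 genes, many genes could not have shown a difference at this depth.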
